A study of Mus musculus with 2 samples.

Results

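Cytokine receptor chains are described here in cells sorted from the thymus as invariant natural killer T (iNKT) cells, among which the library also held other cell types. They are 10 genes picked by name from the 32285 gene rows of 1 single-cell RNA library: Il2rb, Il2rg, Il7r, Il4ra, Il18r1, Il18rap, Il12rb2, Il6st, Ifngr1 and Il2ra. All 10 were found. The study asked what the transmembrane protein Kidins220 does in iNKT cell development. T-KO mice were Kidins220 fl/fl with LckCre, Ctrl mice were Kidins220 +/fl or +/+ with the same LckCre, and all were on the C57BL/6 background. LckCre is driven by the proximal Lck promoter, which is active from an early double-negative stage on, and both genotypes carried it. The methods give a wide range of ages over all experiments of the study and no age for these pools. For each genotype 2 pools of 4 thymi were sorted into TCRβ+ CD1d-tetramer+ CD24+ NK1.1- cells (stage 0) and TCRβ+ CD1d-tetramer+ NK1.1+ CD24- CD44+ cells (stage 3). The 8 populations were tagged with hashtag antibodies, which bind surface proteins of every cell and carry a barcode, and were captured together as 1 library.

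iNKT cells leave the double-positive (DP) thymocyte pool after selection by CD1d and then become effector subsets inside the thymus. Cytokines guide this maturation through receptors built from few, shared chains: the common gamma chain Il2rg pairs with Il2rb for IL-15, with Il7r for IL-7 and with Il4ra for IL-4, and these pairs signal through Jak1 and Jak3 to STAT proteins. The NK-like subset iNKT1 depends on IL-15, and mature cells answer IL-12 and IL-18 by making interferon gamma.

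Of 16179 barcodes, 12147 had at least 1000 genes and at most 5% mitochondrial UMIs (UMI, unique molecular identifier, a count of 1 captured mRNA molecule). One of the hashtag rows 11 to 18 held at least 80% of the hashtag UMIs in 10007 of these cells, which are the cells used here. The 4 odd rows held 4249 cells, with medians of 6500 to 8068 UMIs per cell and 5400279 to 14601545 gene UMIs per row. The 4 even rows held 5758 cells, with medians of 3258 to 3804 UMIs per cell and 2283162 to 7308192 gene UMIs per row. The labels number the hashtags from 1 and not from 11, and they give the first 6 to stage 0 and stage 3 in turn, so no label ties a row to a stage, a genotype or a pool. The rows are therefore not replicates of known groups, no test between genotypes or stages was made, and each row's own value is given as CPM, the UMIs of a gene over all gene UMIs of the row on the usual scale. Intervals are exact 95% Poisson intervals and cover counting error only. The genes of the surface proteins used for sorting split the rows by parity: Klrb1c, which encodes NK1.1, lay at 4.78 to 6.57 CPM in the odd rows and 328 to 444 CPM in the even rows, and Cd24a at 313 to 365 CPM and 23.3 to 34.2 CPM. Trav11, the TCR alpha segment of iNKT cells, lay at 0.205 to 1.14 CPM in the odd rows and at 39.5 to 56.5 CPM in the even rows, and Zbtb16, which encodes the iNKT transcription factor PLZF, at 4.72 to 7.41 CPM and 64.7 to 74.7 CPM. These defining iNKT genes were thus near 0 in the odd rows.

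The IL-18 receptor genes had the largest ratio of medians between even and odd rows among the 10, from odd levels near 0, and their promoters are shown with that of Il7r, whose difference was the largest on the scale of log2(CPM + 10) (3.98, against 3.83 for Il18r1 and 3.54 for Il18rap). Il18r1 (chr1:40465552-40500854, plus strand, GRCm38) encodes the ligand-binding chain and Il18rap (chr1:40515362-40551705, plus strand) the signalling chain, and 14507 bases separate the pair. Il7r lies at chr15:9505788-9530176 on the minus strand. The windows run from 250 bases before to 50 bases after a RefSeq start site (GRCm38.p6), 5′ to 3′ on the gene's strand. Capitals mark matches on either strand to a STAT motif (TTCNNNGAA), a Runx motif (TGTGGT) or an ETS motif (GGAAGT), and a T-box motif (AGGTGTGA) was searched as well.
Il18r1, chr1:40465302-40465601, plus strand: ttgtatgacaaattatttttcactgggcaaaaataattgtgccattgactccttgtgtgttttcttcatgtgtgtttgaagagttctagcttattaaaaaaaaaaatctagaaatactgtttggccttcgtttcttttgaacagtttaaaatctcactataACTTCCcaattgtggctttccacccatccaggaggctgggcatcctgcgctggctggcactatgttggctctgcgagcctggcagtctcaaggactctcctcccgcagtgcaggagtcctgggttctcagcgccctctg
Il18rap, chr1:40515112-40515411, plus strand: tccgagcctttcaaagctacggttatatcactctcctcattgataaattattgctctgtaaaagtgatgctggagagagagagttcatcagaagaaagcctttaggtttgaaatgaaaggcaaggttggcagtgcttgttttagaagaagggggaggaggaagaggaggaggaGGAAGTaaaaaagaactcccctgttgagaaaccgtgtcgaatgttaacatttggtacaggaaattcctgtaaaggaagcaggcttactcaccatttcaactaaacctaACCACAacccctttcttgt
Il7r, chr15:9529827-9530126, minus strand: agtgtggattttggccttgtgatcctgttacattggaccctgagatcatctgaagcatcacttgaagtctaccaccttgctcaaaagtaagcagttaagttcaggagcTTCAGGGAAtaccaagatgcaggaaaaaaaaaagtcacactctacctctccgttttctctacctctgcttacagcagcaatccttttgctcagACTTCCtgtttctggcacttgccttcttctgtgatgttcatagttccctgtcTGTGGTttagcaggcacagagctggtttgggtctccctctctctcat

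The printed Il18r1 window held 1 ETS match, 89 bases before the start. Windows at 2 other Il18r1 start sites, not printed, held an ETS match 158 bases before and a Runx match 21 bases after the one, and STAT matches 219 and 152 bases before the other. The Il18rap window held an ETS match 77 bases before the start and a Runx match 31 bases after it. The Il7r window held a STAT match 142 bases and an ETS match 49 bases before the start, and a Runx match 3 bases after it. The 9 members in the RefSeq table had 11 windows, of which 6 held the ETS letters, 4 the Runx letters, 3 the STAT letters and 0 the T-box letters. Of all 32851 promoter windows of this length 23.8% held the ETS letters, 16.8% the Runx letters, 8.30% the STAT letters and 1.28% the T-box letters. A match is a description of the letters and not of a bound site.

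All 10 receptor genes separated the odd from the even rows: 8 were higher in every even row than in any odd row, and Il6st and Il2ra were lower in every even row. Such separation was common in these rows. Of 7916 genes that reached 20 CPM in at least 1 row, 27.2% lay higher and 36.5% lower in all even rows, so the counts are no result about receptors as such, and the sizes and the levels are what follows. Il18r1 and Il18rap passed that filter only through the even rows, and Il6st and Il2ra only through the odd rows, which favours a separation. The median gene of the 7916 differed by -0.09 on the log2 scale. Cells of the odd rows were deeper, with medians of 6500 to 8068 UMIs against 3258 to 3804 in the even rows. A higher CPM in the even rows is thus a higher share and need not be more UMIs per cell, least of all where the ratio is small. The role of depth was not tested.

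Among the common gamma chain receptors, Il2rb and Il7r were low in the odd rows and abundant in the even rows. Il2rb (chr15:78479256-78495271, minus strand) encodes the signalling chain for IL-2 and IL-15. It measured 45.4, 75.5, 75.2 and 83.9 CPM in rows 11, 13, 15 and 17 and 868, 856, 817 and 952 CPM in rows 12, 14, 16 and 18. Row 11 was the lowest odd row, with an interval of 41.2 to 49.8 CPM that did not meet those of the other odd rows. The even median was 11.4 times the odd median, and the lowest even row stood 9.74-fold above the highest odd row. Il7r, the IL-7 binding chain that double-negative and mature T cells carry, measured 53.9, 42.1, 40.6 and 45.6 CPM in the odd rows. In the even rows Il7r measured 827, 851, 821 and 859 CPM, a ratio of medians of 19.2. The even rows were close to each other, and all lay at least 15.2-fold above row 11, the highest odd row.

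Il2rg (chrX:101264378-101268255, minus strand), the shared chain, was present in all rows. It measured 262, 261, 241 and 301 CPM in the odd rows and 777, 862, 902 and 953 CPM in the even rows, a ratio of 3.37. Il4ra (chr7:125552120-125579474, plus strand), which binds IL-4, had the smallest gap. It measured 21.1, 13.6, 12.9 and 13.9 CPM in the odd rows and 31.2, 33.7, 26.7 and 32.4 CPM in the even rows. The lowest even row was only 1.26-fold above row 11, and the interval of row 16 (20.4 to 34.3 CPM) overlapped that of row 11 (18.4 to 24.2 CPM), so these 2 rows did not differ beyond counting error. The odd and even ranges of Il4ra overlapped after thinning to 2000 UMIs per cell, with a hashtag share of at least 95%, and with the mean of per-cell CPM.

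The receptors for inflammatory cytokines were almost absent from the odd rows in the case of IL-18 and present at a lower level in the case of IL-12 and interferon gamma. Il18r1 measured 2.77, 3.29, 3.53 and 4.26 CPM in the odd rows and 155, 191, 169.9 and 213 CPM in the even rows, a ratio of medians of 52.9. Il18rap measured 1.85, 2.12, 1.82 and 1.85 CPM in the odd rows and 116, 131, 124 and 153 CPM in the even rows, a ratio of 69.0. For both genes row 18 was the highest and row 12 the lowest even row, and their intervals did not meet. Il12rb2 (chr6:67291318-67376188, minus strand), the inducible chain of the IL-12 receptor, measured 19, 19.4, 18.4 and 24.1 CPM in the odd rows and 129.8, 138, 126 and 134 CPM in the even rows. Ifngr1 (chr10:19591949-19610229, plus strand), the ligand-binding chain for interferon gamma, measured 156, 163, 152 and 185 CPM in the odd rows and 433, 445, 413 and 487 CPM in the even rows. The ratios of medians were 6.88 and 2.76, and the even rows differed by less among themselves than from any odd row.

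Il6st and Il2ra ran the other way. Il6st (chr13:112464070-112510086, plus strand) encodes gp130, the signal transducer shared by IL-6, IL-27 and related cytokines. It measured 47.3, 49.6, 51.7 and 56.7 CPM in the odd rows against 9.58, 8.35, 11.4 and 9.49 CPM in the even rows, 5.31-fold more by medians. Il2ra (chr2:11642807-11693193, plus strand), which encodes CD25, the chain that gives the IL-2 receptor its high affinity and marks double-negative (DN) and regulatory T cells, measured 58.4, 74.1, 53.3 and 48.0 CPM in the odd rows. In the even rows Il2ra measured 8.26, 9.03, 15.3 and 18.1 CPM, and the odd median was 4.58-fold higher. Rows 16 and 18 lay above rows 12 and 14, though the intervals of rows 14 (6.98 to 11.5 CPM) and 16 (10.7 to 21.3 CPM) overlapped.

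**Figure D1:**
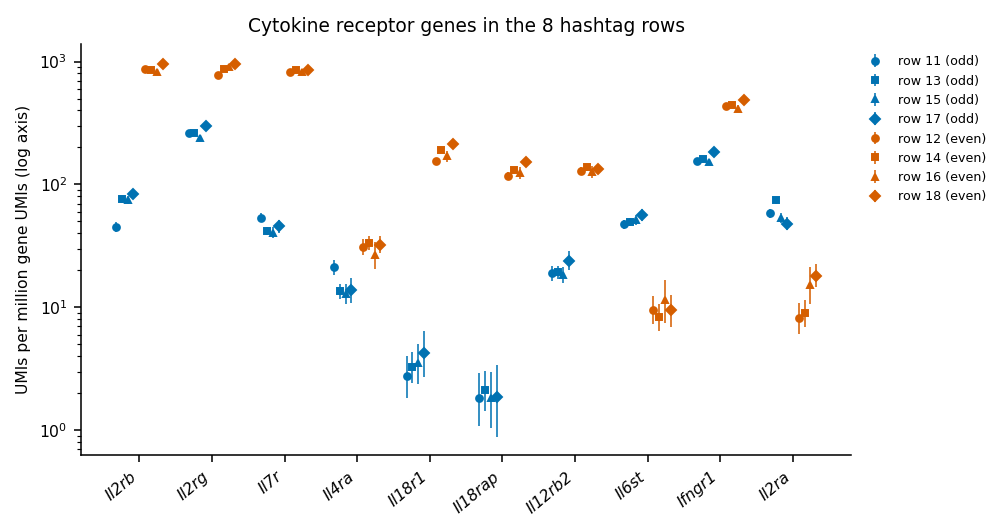
Levels of the 10 receptor genes, in CPM on a log axis, in the 4 odd hashtag rows (blue) and the 4 even hashtag rows (orange). Points are rows and bars exact 95% Poisson intervals of counting error. Il18r1 and Il18rap lie under 5 CPM in the odd rows and above 100 CPM in the even rows, while Il6st and Il2ra are lower in the even rows.

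Summed levels of markers of other cell types also moved with parity, though not every marker did. The 6 B cell markers summed to 425 to 980 CPM in the odd rows and 30.8 to 56.1 CPM in the even rows, the 8 myeloid or dendritic cell markers to 2271 to 6498 CPM and 662 to 799 CPM, the 7 DP thymocyte markers to 455 to 707 CPM and 70.1 to 89.3 CPM, and the 3 cycling genes to 792 to 1249 CPM and 143 to 265 CPM. The 5 DN thymocyte markers, Il2ra among them, summed to 188 to 230.5 CPM and 59.6 to 82.8 CPM. In the myeloid sum Cst3, a gene of the split below, alone lay at 2086 to 5853 CPM and 245 to 352 CPM. Fcer1g of that list ran the other way, at 69.1 to 252 CPM in the odd and 392 to 445 CPM in the even rows. The odd and even ranges of Lyz2, Siglech, Cd4 and Notch1 overlapped. Between rows, fewer cells of a type and less RNA per cell cannot be told apart, so the odd rows were split further. The cells went in turn into a Cd79a group (at least 2 UMIs of this B cell receptor gene, 810 cells), a Cst3 group (at least 5 UMIs of cystatin C, abundant in dendritic cells, 972 cells), a Rag1 group (at least 1 UMI of this recombinase gene, 418 cells), an Ikzf2 group (at least 2 UMIs of the gene for Helios, a transcription factor of strongly selected thymocytes, 1106 cells) and the rest (943 cells). Other markers followed the split. Cd79b lay at 735 to 950 CPM and Ms4a1 at 526 to 687 CPM in the Cd79a group, against at most 28.1 and 10.9 CPM in any other group. Xcr1 lay at 98.5 to 123 CPM and Flt3 at 109 to 178 CPM in the Cst3 group. In the Ikzf2 group Sox4 (626 CPM over all rows), Itm2a (412 CPM) and Tnfrsf9 (179 CPM) were abundant, whereas Trav11 (0.583 CPM), Zbtb16 (11.3 CPM) and Foxp3 (4.08 CPM) were scarce, so the group is called by its rule. Median UMIs per cell were 6002.5, 10487, 13561.5, 5517.5 and 4159 in the order given, and 318 cells of the rest had 1 Ikzf2 UMI.

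Il2rb and Il6st marked the Ikzf2 group among the odd rows. Il2rb measured 178, 228, 219.8 and 187 CPM there in rows 11, 13, 15 and 17, against 41.4, 27.4, 34.0 and 43.1 CPM in the rest, 45.6, 55.3, 29.4 and 68.9 CPM in the Cd79a group, 15.5, 12.4, 41.4 and 38.3 CPM in the Cst3 group and 6.14, 3.8, 15.2 and 6.63 CPM in the Rag1 group. Every Ikzf2 value lay above every value of the other 4 groups, and every value of the even-row groups (783 to 977 CPM) lay above those of the Ikzf2 group. Il6st measured 94.1, 124, 108 and 106 CPM in the Ikzf2 group, 56.0, 27.0, 40.5 and 45.1 CPM in the rest and 53.2, 35.5, 42.2 and 32.2 CPM in the Cst3 group. It was lower in the Rag1 group (17.1 to 33.8 CPM) and spread widely in the Cd79a group (7.91 to 43.7 CPM), and in the 3 groups of the even rows it stayed between 2.56 and 14.4 CPM. The Ikzf2 group thus held the highest Il6st level of all 8 groups in every row, with a range apart from that of the rest.

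The Ikzf2 group was set against each of the other 4 groups within each row, on CPM plus 10, and a gene was counted when it passed 1.5-fold in all 4 rows. Against the rest, Il2rb (median 4.40-fold, 3.66-fold to 6.38-fold by row) and Il6st (2.22-fold, 1.58-fold to 3.62-fold) were counted as higher of 8 members that reached 20 CPM in either group, where 1.92% of 7808 genes were counted as higher and 0.423% as lower. Against the Rag1 group, 4 of 8 members were higher, where 7.38% of 7687 genes were higher and 1.38% lower: Il2rb (11.7-fold), Il6st (3.63-fold), Il2rg (2.20-fold) and Il4ra (1.87-fold). Against the Cst3 group, Il2rb (5.74-fold), Il2rg (2.53-fold) and Il6st (2.49-fold) were higher of 8 members, where 7.93% of 8073 genes were higher and 9.32% lower. Against the Cd79a group, 4 of 7 members were higher, where 19.2% of 8238 genes were higher and 8.00% lower: Il2ra (6.34-fold), Il6st (4.54-fold), Il2rb (3.51-fold) and Il7r (2.32-fold). Il6st was not counted against the rest with a 2-fold limit or with at least 1 Ikzf2 and at least 2 Rag1 UMIs, nor against the Cst3 group with these or with median-of-ratios scaling. Il2rg and Il4ra were not counted against the Rag1 group with at most 4000 genes per cell, nor Il2ra against the Cd79a group after thinning to 2000 UMIs. Some members passed the 20 CPM filter only through the Ikzf2 group, which favours a count as higher. These were Il2rb and Il4ra against the Rag1 group and Il2ra against the Cd79a group. Il4ra passed it only in row 11 (22.0 CPM), and so was not tested there without row 11. No member was counted as lower in the Ikzf2 group in any of these 4 comparisons. Over all genes the median log2 difference was 0.02 against the rest, 0.06 against the Rag1 group, 0.24 against the Cst3 group and 0.47 against the Cd79a group.

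The shared chain Il2rg divided the odd-row groups differently. Its levels in the Ikzf2 group (369.9 to 400.1 CPM), the rest (268 to 431 CPM) and the Cd79a group (281 to 429.7 CPM) overlapped. It was lower in the Rag1 group (157 to 206 CPM) and the Cst3 group (134 to 159 CPM). These groups were the deepest, with medians of 13561.5 and 10487 UMIs per cell, so the lower share need not be fewer UMIs per cell. Before thinning, an Il2rg UMI was found in 84.4% of Rag1 cells and 57.9% of Cst3 cells. The shares were 87.4% in the Ikzf2 group, 84.8% in the rest and 78.8% in the Cd79a group. Il4ra was at its lowest in the Rag1 group, at 10.8, 2.85, 1.13 and 3.79 CPM, and at 11 to 36.9 CPM in the other 4 groups. Row 11 was the highest in the Rag1 group and also differed there in depth, with a median of 3684.5 UMIs per cell against 14409 to 15274 in the other odd rows.

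Among the odd-row groups Il7r was highest in the rest, and Il2ra was high in both the rest and the Ikzf2 group. Il7r measured 137, 72.3, 62.8 and 77.1 CPM in the rest and 78, 55, 48.7 and 39.7 CPM in the Ikzf2 group. The rest was higher in every row, yet the 1.5-fold limit was passed in 2 of 4 rows. Il2ra measured 138, 157, 81.7 and 92.1 CPM in the rest and 155, 99.2, 86.3 and 17 CPM in the Ikzf2 group. Row 17 stood apart in the Ikzf2 group, while its rest did not. The Ikzf2 group was the higher in rows 11 and 15 and the rest in rows 13 and 17, and the median log2 difference of -0.27 became 0.069 without row 13 or without row 17. In the other odd-row groups Il2ra lay at 32.0 to 75.6 CPM (Cst3), 15.4 to 46.4 CPM (Rag1) and 2.30 to 11.6 CPM (Cd79a). Without row 17, Il2ra passed the limit as higher in the Ikzf2 group against the Rag1 and the Cst3 groups. Against the Rag1 group its median log2 difference of 1.15 turned to -0.10 with per-cell CPM. It turned to -1.85 after thinning, where the groups were formed again from the thinned counts and so held other cells. With the groups kept, an Il2ra UMI was found in 5.79% of thinned Ikzf2 cells and 4.88% of thinned Rag1 cells.

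Ifngr1, Il12rb2 and the IL-18 receptor genes completed the odd-row groups. Ifngr1 lay between 101 and 238 CPM in all 5 odd-row groups, where the interferon receptor chain was lowest in the Cd79a group outside row 17 (101 to 108 CPM, and 172 CPM in row 17). Il12rb2 lay at 21.6 to 35.0 CPM in the rest, 20.3 to 32.2 CPM in the Rag1 group, 19.3 to 27.2 CPM in the Cst3 group, 13.4 to 19.3 CPM in the Ikzf2 group and 2.06 to 6.89 CPM in the Cd79a group. Il18r1 did not pass 9.19 CPM and Il18rap did not pass 3.51 CPM in any odd-row group. In the Rag1 group of row 11 no Il18r1 UMI was counted (upper bound of the interval 5.67 CPM).

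**Figure D2:**
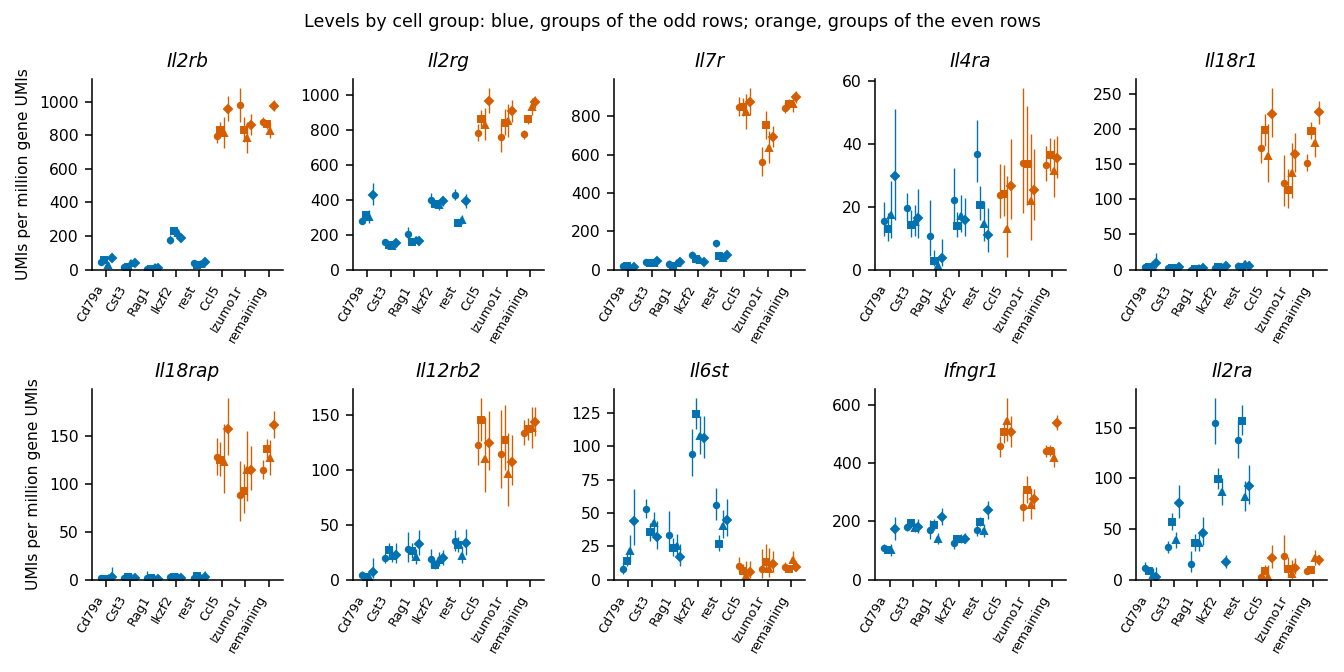
Levels of each receptor gene, in CPM on linear axes from 0, in the 5 cell groups of the odd rows (blue) and the 3 of the even rows (orange). Points are hashtag rows and bars exact 95% Poisson intervals. The Ikzf2 group is the highest of the 8 groups for Il6st and the highest of the blue groups for Il2rb, at 178 to 228 CPM.

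The Ikzf2 group was not uniform. Cells with at least 2 UMIs of Cd7, a surface protein of T and NK cells, numbered 126 and held Il2rb at 489.8, 1043, 1014 and 906 CPM, against 157, 164, 144 and 113 CPM in the 814 cells with none. In rows 13, 15 and 17 the Cd7 cells thus reached or passed the range of the even-row groups (783 to 977 CPM). The 449 cells with a UMI of Tnfrsf9, an activation-induced receptor, held Il2rb at 269, 302, 411 and 284 CPM and the 657 others at 131, 177, 119 and 131 CPM. Il2rg ran alike, with 489.6 to 575 CPM against 262 to 328 CPM, and Il6st with 132 to 157 CPM against 74.6 to 111 CPM. Ifngr1 was lower in the Tnfrsf9 cells, at 77.4 to 99.7 CPM against 150.4 to 182 CPM. Il2ra was lower as well, at 7.46, 15.6, 5.65 and 15.6 CPM against 231, 158, 129 and 17.9 CPM, and only row 17 came near to overlap. The share of all genes with ranges apart in the Cd7 and Tnfrsf9 splits was not computed, so these separations are no result about receptors as such. Neither split was crossed with that by cycling genes below.

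Proliferating cells in the Ikzf2 group gave a smaller share of their UMIs to Il2rb, Il6st, Il2rg and Il4ra and a larger one to Il12rb2. Their ranges were apart, but the share of all genes with ranges apart in this split was not computed. The separation is therefore no result about receptors as such. In the 376 cells with at least 2 UMIs of Mki67 plus Top2a, Il2rb measured 105, 126, 103 and 99.4 CPM, against 272, 358, 386 and 315 CPM in the other 730 cells. Il6st lay at 47.3 to 61.9 CPM against 138 to 203 CPM, Il2rg at 247 to 286 CPM against 508 to 576 CPM, and Il4ra at 6.64 to 12 CPM against 19.7 to 34.9 CPM. Il12rb2 lay at 19 to 25.8 CPM against 6.35 to 14.2 CPM. Il18r1 lay under 3 CPM against 3.88 to 6.99 CPM, too few UMIs to compare. The cycling cells were deeper, with a median of 12973.5 UMIs against 4331.5, so that a lower CPM is a lower share and need not be fewer UMIs per cell, and the role of depth was not tested.

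Il2ra followed Kit, the stem cell factor receptor of early thymocytes, in a split chosen after the values were seen. In the Ikzf2 group the 221 cells with a Kit UMI held Il2ra at 411, 408, 309 and 55.7 CPM and the 885 others at 60.4, 43.5, 28.8 and 7.13 CPM. In the rest, Kit cells of rows 11, 13 and 15 held 254, 363 and 203 CPM, and the cells without Kit held 92.3, 94.2, 63.8 and 52.5 CPM. Row 17 had under 20 Kit cells in the rest and gave no value. Foxp3, the regulator of regulatory T cells, was found in only 20 cells of the Ikzf2 group, whose Il2ra level was 262 CPM over all rows against 83.3 CPM in the cells without it. In the Rag1 group, the 322 cells with a UMI of the CD8 beta chain gene Cd8b1 held Il2ra at 13.2 to 31.1 CPM. The cells without Cd8b1 held 155 and 169 CPM in rows 13 and 15, the only rows with 20 such cells. The share of all genes that separate in the Kit and Cd8b1 splits was not computed.

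**Figure D3:**
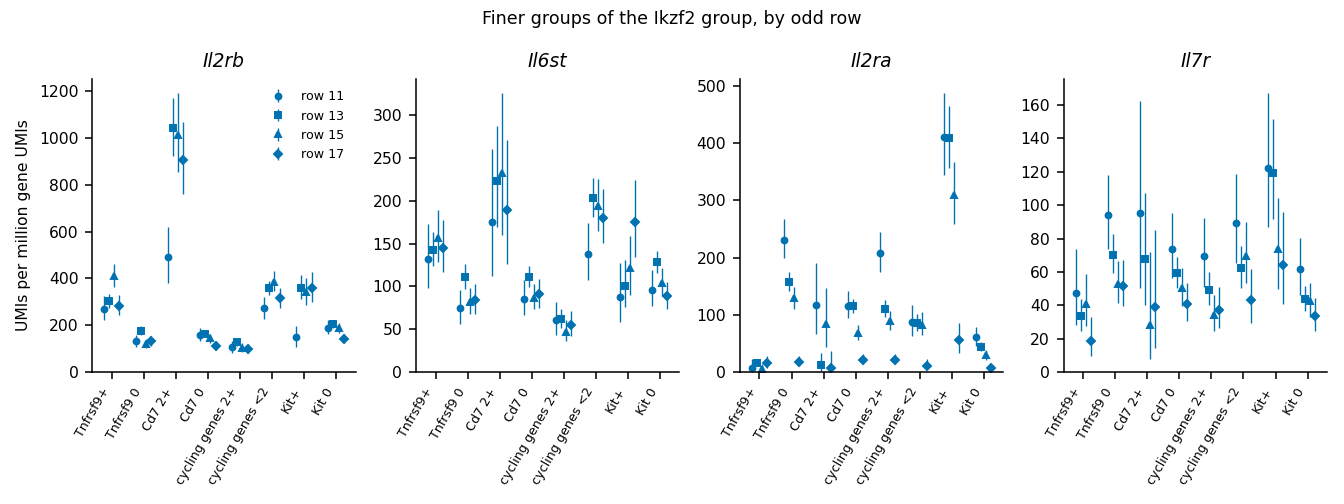
Il2rb, Il6st, Il2ra and Il7r, in CPM on linear axes from 0, in subsets of the Ikzf2 group set by Tnfrsf9, Cd7, cycling genes (Mki67 plus Top2a) and Kit. Points are odd rows and bars exact 95% Poisson intervals. Il2rb is highest in cells with at least 2 Cd7 UMIs (489.8 to 1043 CPM), and Il2ra in cells with Kit, row 17 being the lowest of each Kit pair.

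In the even rows the receptor genes varied little between cells rich in Ccl5 and cells with Izumo1r. A Ccl5 group (at least 4 UMIs of this chemokine gene, 1051 cells) was set against an Izumo1r group (at least 2 UMIs of the folate receptor 4 gene and no Ccl5, 538 cells), leaving 4169 remaining cells. Their median depths were alike at 3533, 3783.5 and 3296 UMIs. Zbtb16 was 3.01-fold and Il4 2.68-fold higher in the Izumo1r group. Of 9 members at 20 CPM or more in either group, only Ifngr1 passed 1.5-fold in all 4 rows, where 0.735% of 7480 genes were higher and 0.361% lower in the Ccl5 group. No member was lower in all 4 rows by that limit, and the median gene differed by -0.03 on the log2 scale.

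Ifngr1 measured 458, 506, 545 and 508 CPM in the Ccl5 group of rows 12, 14, 16 and 18, and 250.2, 307, 257 and 276 CPM in the Izumo1r group. The ranges were apart, the difference was 0.70 to 1.06 on the log2 scale, and the remaining cells lay at 417 to 539 CPM. With the wider limits of at least 2 Ccl5 UMIs and at least 1 Izumo1r UMI the median difference was 0.49, under the 1.5-fold limit. Il7r measured 848, 847, 819 and 876 CPM in the Ccl5 group and 560.3, 752, 635 and 693 CPM in the Izumo1r group. It was higher in all 4 rows, by 0.17 to 0.59 on the log2 scale, and passed 1.5-fold in 1 of them.

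The IL-18 receptor pair showed the same order with a smaller gap. Il18r1 measured 173, 198, 161 and 221 CPM in the Ccl5 group and 122, 113, 137 and 165 CPM in the Izumo1r group. Il18rap measured 128, 125, 123 and 158 CPM against 88.6, 92.9, 115 and 115 CPM. Both were higher in the Ccl5 group in 4 of 4 rows, with medians of 1.35-fold and 1.33-fold. Il12rb2 was also higher in all 4 rows, by a median of 1.13-fold. Counting intervals of the 2 groups overlapped in every row for Il18rap and Il12rb2, and in all but row 14 for Il18r1. The share of all genes higher in 4 of 4 rows was not computed.

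The gamma chain and its IL-15 partner did not differ by more than their spread over rows. Il2rb measured 798, 834, 812 and 957 CPM in the Ccl5 group and 977, 831, 783 and 861 CPM in the Izumo1r group, with row 12 running against the other 3. Il2rg lay at 786 to 968 CPM against 761 to 911 CPM. The log2 differences spanned -0.29 to 0.15 for Il2rb and -0.04 to 0.09 for Il2rg. Il4ra, at 12.8 to 26.6 CPM against 21.9 to 33.9 CPM, and Il2ra, at 2.56 to 21 CPM against 5.47 to 23.5 CPM, changed direction between rows.

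**Figure D4:**
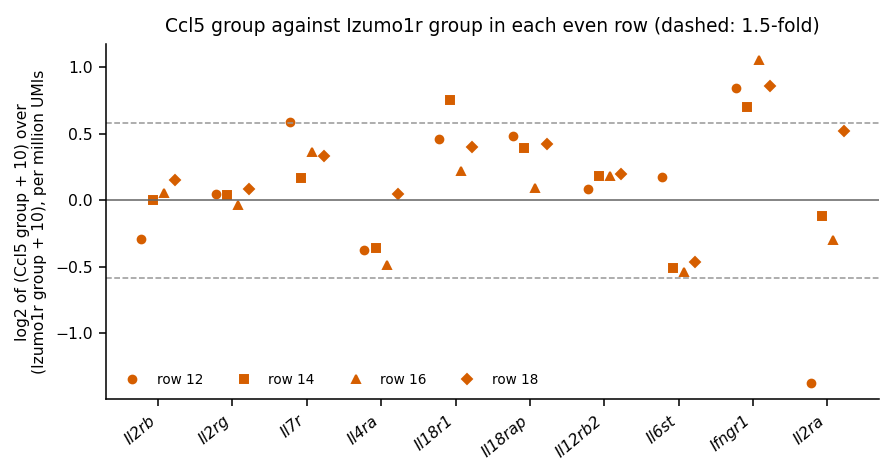
Difference between the Ccl5 group and the Izumo1r group within each even row, as log2 of CPM plus 10 in the Ccl5 group over the same in the Izumo1r group, for each receptor gene. Points are rows, the solid line marks no difference and the dashed lines 1.5-fold. Ifngr1 lies above 1.5-fold in all 4 rows (0.70 to 1.06), and Il2rb and Il2rg lie around 0.

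Counting cells gave the same picture for the chains that form 1 receptor. At least 1 Il2rb UMI was found in 93.1% of the Ccl5 group, 90.3% of the Izumo1r group, 48.9% of the Ikzf2 group (95% exact binomial interval 45.9 to 51.9%), 24.7% of the Cd79a group, 13.4% of the rest, 10.7% of the Cst3 group and 6.94% of the Rag1 group. After thinning each cell to 2000 UMIs, which left out from 2 to 525 shallower cells per group, the shares were 79.4%, 74.8%, 31.2%, 10.5%, 8.21%, 3.51% and 1.80%. The order of these 7 groups was kept, while the remaining cells of the even rows went from 89.0%, under the Izumo1r group, to 76.7%, above it. The Ikzf2 share lay above that of the Rag1 group, whose cells were deeper (median 13561.5 UMIs against 5517.5). The Rag1 share is no pure background of DP thymocytes. Its 96 cells without Cd8b1 held Il2rb at 33.9 CPM over all rows, and its 322 cells with Cd8b1 at 3.21 CPM. Il2rb and Il2rg were found together in 63.9% of thinned Ccl5 cells, 60.9% of Izumo1r cells, 19.3% of Ikzf2 cells and 1.54% of Rag1 cells. Il2rg alone was counted in 80.8%, 81.5%, 57.4% and 27.2% of these thinned cells. A joint share rises with the single shares. Whether the chains of this pair, or of the pairs below, occur together more often than their single shares imply was not tested.

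Il7r and Il2rg occurred together in 61.6% of thinned Ccl5 cells, 54.4% of Izumo1r cells, 11.4% of the rest, 4.75% of Ikzf2 cells and 1.03% of Rag1 cells. The Ikzf2 cells thus held Il2rb more often than Il7r beside the gamma chain, and the rest the reverse (6.28% with Il2rb). Il18r1 and Il18rap were found together in 20.9% of the Ccl5 group, 15.2% of the Izumo1r group and 17.6% of the remaining cells before thinning, and in 8.96%, 3.44% and 7.35% after it. In the odd rows, before thinning, the pair was found in 1 of 1106 Ikzf2 cells and 1 of 943 cells of the rest. It was found in 0 of 810 Cd79a cells, 0 of 972 Cst3 cells and 0 of 418 Rag1 cells, which at 3 counts allows shares of cells with a UMI of both of up to 0.370%, 0.309% and 0.718%, and does not limit the share of cells that express them.

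Among the other chains of these receptors, which came from a list of 5, 3 reached 20 CPM in a row. Il12rb1 did so only in even rows, and Ifngr2 and Il6ra only in odd rows, which favours a separation. Il12rb1, which completes the IL-12 receptor, lay at 5.01 to 7.96 CPM in the odd rows and 16 to 21.7 CPM in the even rows, higher like Il12rb2. Ifngr2, the signalling chain of the interferon gamma receptor, ran against its partner Ifngr1: it lay at 36.1 to 77.4 CPM in the odd rows and at 3.15 to 5.69 CPM in the even rows. By group Ifngr2 lay at 74.5 to 115 CPM in the Cd79a group and 76.5 to 118 CPM in the Cst3 group, at 10.4 to 30.5 CPM in the other 3 odd-row groups, and at 1.40 to 5.12 CPM in the Ccl5 group. Il6ra, the partner of gp130 for IL-6, was lower in the even rows like Il6st, at 13.7 to 39.3 CPM in the odd and 4.10 to 5.69 CPM in the even rows.

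Downstream of the receptors, 2 of 4 kinases were higher in all even rows and 0 lower, where 27.2% of all tested genes were higher and 36.5% lower, the background for each count that follows. Jak1, which binds gp130 and several gamma chain partners, lay at 144 to 172 CPM in the odd rows and 404 to 461 CPM in the even rows, and Jak3, the kinase of Il2rg, at 24.9 to 30.7 CPM and 62.8 to 79.2 CPM. Of 7 STAT genes 4 were higher and 3 lower. Stat4, used by IL-12, was 4.88-fold higher by medians, whereas Stat5a and Stat5b, used by IL-7 and IL-15, were lower (46.4 to 53.3 CPM and 22.3 to 25.9 CPM for Stat5a). Of 6 feedback inhibitors 5 were higher, among them Socs1 (39.6 to 58.7 CPM and 122 to 139 CPM) and the STAT5 target Cish (6.30 to 10.1 CPM and 24.1 to 34.4 CPM). Of 5 genes of the IL-18 pathway 4 were higher, Myd88, Irak1, Irak2 and Irak4, while the odd and even ranges of Traf6 overlapped. Cish, Socs3 and Irak4 passed the 20 CPM filter only through the even rows, which favours a count as higher. Of 21 other receptor genes 12 reached 20 CPM, 7 were higher and 2 lower. The 2 lower genes passed that filter only through the odd rows. Il27ra, which signals with gp130, was the highest in ratio (24.1 to 35.4 CPM and 181 to 200.2 CPM), against the direction of Il6st. Ifng, at 1.51 to 2.41 CPM and 95 to 189 CPM, and Il4, at 0.479 to 3.52 CPM and 21.5 to 33.0 CPM, were the 2 of 11 ligand genes at 20 CPM or more. Both were higher in the even rows, through which alone they passed the filter. Under the filter, Il15 (5.74 to 12.7 CPM and 0 to 1.86 CPM), Il18, Il7 and Tslp were lower in every even row. Il2 was higher in every even row, and the others overlapped.

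The likeness of patterns was described by Pearson's r of log2(CPM + 10) over the 32 combinations of row and group, which share 1 library and differ in depth, so no p is given. These combinations span both parities, so genes that differ alike between odd and even rows reach a high r through that alone. Likeness within the odd or the even rows alone is not given. Between members, Il18r1 and Il18rap were the most alike (r = 0.99), followed by Il7r with Il18rap (0.97), while Il6st ran against Il18r1 (-0.72) and with Il2ra (0.66). Among 8472 genes, those most like Il18r1 were Gzmb, Klrc2 and Gm2682 and those most like Il18rap were Gm2682, Gzmb and the NK1.1 gene Klrb1c (r = 0.99 for each). Nkg7, Cd40lg and Gstp3 were nearest to Il7r, Tnfrsf18, Ctsw and Arhgef3 to Il2rb, and Pdcd4, Arhgap45 and Jak1 to Il2rg. Galnt10, Ms4a6b and Rcbtb2 were nearest to Il12rb2, Pxylp1, Klrc1 and Gm33104 to Ifngr1, and Nedd9, Rassf2 and Msn to Il4ra. Il6st was most like Polb (0.92), Cers6 and P2rx7, and Il2ra was most like Cpa3 (0.90), Angpt1 and Adgrg1.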

How the data were processed

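The matrix holds deposited UMI counts per gene and cell of 1 pooled mRNA library (10x 5′ chemistry, NovaSeq) and the counts of its hashtag library, made by the authors with Cell Ranger 6.0.0 on mm10. Gene positions were taken from GENCODE M21 (GRCm38) by gene name. Counts are raw, and the study's own removal of B, myeloid, DP and DN cells was not repeated. Cells had at least 1000 genes, at most 5% mitochondrial UMIs, and at least 80% of at least 10 hashtag UMIs on 1 of rows 11 to 18, which removes cells with mixed hashtags. No doublet caller was run, and doublets within a row remain. Counts were summed per row and cell group and divided by the row's or group's gene UMIs. Comparisons used CPM plus 10, 20 cells per group and row, and genes of at least 20 CPM. A gene was called when its odd and even ranges were apart, or at 1.5-fold in each of 4 rows. Hashtag rows carry no group in the labels, so no p-values were computed. Named genes were the members, fixed lists, sort and split genes, and the 3 genes most like each member. Il2rb is also on the iNKT1 marker list, and Il2ra on the regulatory T and DN lists. Members, lists and limits were chosen with earlier results of these data known. Python 3.11.15, numpy 2.4.6, scipy 1.17.1, pandas 2.3.3, matplotlib 3.10.9, R 4.3.3 and Seurat 5.3.0 (HTODemux) were used. Alternatives covered cell filters, hashtag assignment, thinning, scaling, limits and leaving out each hashtag row. In the thinning alternative the cell groups were formed again from the thinned counts, whereas the shares of thinned cells kept the groups.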

Additional observations from a re-analysis of the deposited data

Results flagged for a closer look

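In 7 of 100 sets of 4 rows 1 row lay far from the other 3, and chance gives about 1 in 20 such sets. Over the odd rows these were Il4ra in row 11 (21.1 CPM, others 12.9 to 13.9 CPM), Il18rap in row 13 (2.12 CPM, others 1.82 to 1.85 CPM) and Il12rb2 in row 17 (24.1 CPM, others 18.4 to 19.4 CPM). In the Ikzf2 group they were Il18rap in row 17 (1.70 CPM, others 2.44 to 2.54 CPM) and Ifngr1 in row 11 (126 CPM, others 139 to 141 CPM). In the Cd79a group Ifngr1 stood out in row 17 (172 CPM, others 101 to 108 CPM), and in the Ccl5 group Il18rap in row 18 (158 CPM, others 123 to 128 CPM). Some flagged rows had a counting interval that covered the values of the other rows. These were Il18rap in row 13 (1.44 to 3.01 CPM) and, in the Ikzf2 group, Il18rap in row 17 (0.351 to 4.98 CPM) and Ifngr1 in row 11 (107 to 148 CPM).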

How the results depend on the processing

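In the 17 alternatives run on them, 2 members stayed lower in the even rows, and 8 stayed higher except that 7 did, without Il4ra, after thinning, with a hashtag share of at least 95% and with per-cell CPM. Of 970 log2 values compared over 21 alternatives, 794 moved by no more than the 95% counting half-width, 167 by more, and 9 changed sign from a value whose counting interval excluded 0, and of 194 counts of members 181 stayed within 1.5 times the reported count. Against the rest, the count of members higher in the Ikzf2 group went from 2 to 1 with cell limits of 500 genes and 10% mitochondrial UMIs, with at least 1 Ikzf2 and at least 2 Rag1 UMIs, and with a 2-fold limit, Il6st being lost each time. The count lower went from 0 to 1 with at most 4000 genes per cell (Il2ra) and with the mean of per-cell CPM (Il7r), and to 2 after thinning to 2000 UMIs (Il12rb2 and Il2ra). Against the Rag1 group the count higher went from 4 to 2 with at most 4000 genes, with per-cell CPM and with a 2-fold limit (Il2rg and Il4ra lost), and the count lower from 0 to 1 after thinning (Ifngr1). Ifngr1 was no longer counted in the Ccl5 group (1 to 0) after thinning, where its median log2 difference was 0.99, with the wider Ccl5 and Izumo1r limits, or with a 2-fold limit. Without row 11 Il4ra was lost against the Rag1 group because no other row reached the 20 CPM filter. Without row 17 Il2ra was gained against the Cst3 and Rag1 groups.

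The sign changed for Ifngr1 over the Cd79a group (log2 0.30, to -0.23 thinned and -0.29 with median-of-ratios scaling), Il2rg over the Cd79a group (0.27, to -0.31 with that scaling), Il2ra over the Rag1 group (1.15, to -1.85 thinned and -0.10 with per-cell CPM), Il2rg over the rest (0.18, to -0.18 with per-cell CPM and -0.089 with the other Ikzf2 and Rag1 limits) and Il2ra over the rest (-0.27, to 0.069 without row 13 and 0.069 without row 17). Median-of-ratios scaling brought the median gene from 0.47 to 0.00 against the Cd79a group. The causes were not tested. Il12rb2, under the 20 CPM filter against the Cd79a group, was counted as higher there under 6 alternatives. No paired analysis was possible because the 2 samples are an mRNA and a hashtag library of the same cells, with no replicate numbers shared between groups, and the cell groups were already compared within each row. Depth limits the low genes most: Il18r1 and Il18rap in the odd rows and Il4ra throughout have wide counting intervals.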

Other observations

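The 2140 cells that passed the filters but had no hashtag row at 80% had a median of 7131.5 UMIs. Over these cells together Il2rb measured 348 CPM, Il2rg 472 CPM, Il7r 328 CPM, Il4ra 22.6 CPM, Il18r1 66.4 CPM, Il18rap 50.4 CPM, Il12rb2 61.1 CPM, Il6st 43.7 CPM, Ifngr1 273 CPM and Il2ra 39.4 CPM. For all 10 genes this value lay in the gap between the range of the odd rows and that of the even rows. All 2140 cells had at least 10 hashtag UMIs, so they lacked a row because their hashtags were mixed. A blend of odd-row and even-row cells gives a value in between for any gene that differs by parity. The share of all genes in that gap was not computed, so this is no result about receptors as such.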
